A study of Homo sapiens with 2 samples.

Results

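Genes of the TRIM (tripartite motif) family were examined in 2 RNA-seq libraries of HaCaT, an immortalized line of human skin keratinocytes. A gene was taken as a member when its symbol in the deposited gene table was TRIM followed by a number and at most 1 further letter. This gave 51 of the 15159 genes listed, and 42 of the 51 passed a filter of at least 20 reads in 1 library, as did 11659 genes of the whole table. Of these 42, the 8 members TRIM5, TRIM14, TRIM21, TRIM22, TRIM25, TRIM26, TRIM38 and TRIM56 formed the interferon-inducible class, and the remaining 34 were the other members. The class is a fixed list, and whether any of the other members responds to interferon was not examined. In the FLI1 overexpression library, cells had been transfected with MigR1 that held FLI1, a transcription factor of the ETS family. In the vector control library, cells had received MigR1 alone. Both dishes were transfected by lipid with 4 μg of DNA, the medium was changed after 6 hours, and RNA was taken after 2 days. GFP was looked at before RNA extraction, and the share of cells that had taken up DNA is not stated. Each group is 1 such transfection.

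With 1 library in each group, no difference between the conditions could be tested. A log2 ratio below is that of the reads, scaled by TMM (trimmed mean of M-values), in the FLI1 library over those in the vector control library. Its 95% interval covers counting error only and compares these libraries, not the conditions. Reads printed below are estimated reads rounded to whole numbers, except where decimals are given. The FLI1 library held 14677273 reads and the vector control library 14497105. FLI1 itself had 2452 reads in the FLI1 library, against 64 in the vector control library. The labelled cell type was checked by its markers: all 10 listed keratinocyte genes passed the filter, and KRT5 and KRT14 had 2598 and 2560 FPKM in the FLI1 library, against 3147 and 2685 FPKM in the vector control library. Summed over each list of markers of other skin cells, fibroblast markers had 100 reads in the FLI1 library and 101 in the vector control library, endothelial markers 92 and 53, leukocyte markers 413 and 267, and melanocyte markers 176 and 66. Of the 6 genes in each of these lists, 1 fibroblast, 1 endothelial, 2 leukocyte and 2 melanocyte genes passed the filter. Of these, CD68, which cells other than leukocytes also make, had 379 reads in the FLI1 library and 246 in the vector control library (18.3 and 11.9 FPKM). PMEL, a melanosome gene, had 97 and 3 reads, and VWF, an endothelial gene, had 90 and 52. The intervals of these 3 genes lay above 0, while those of COL1A1, ITGAM and MITF included 0. Of the genes below the filter, CD14, CDH5, PDGFRB and TYRP1 had 2, 1, 1 and 2 reads in the FLI1 library. They had 0 reads each in the vector control library. DCT went the other way, with 0 reads in the FLI1 library and 2 in the vector control library. MLANA, COL1A2 and KDR had 5, 1 and 1 reads in each library. Both libraries are labelled as the HaCaT line, so these reads do not show that other skin cells were present. Neither the source of these reads nor its bearing on the TRIM values was tested.

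TRIM proteins share an arrangement of a RING finger, B-boxes and a coiled coil, and most of them attach ubiquitin or related modifiers to other proteins through the RING. A few members, such as TRIM14, TRIM16, TRIM29, TRIM44 and TRIM66, lack the RING. Interferon raises the transcription of many members in human cells, and these act in the sensing of viral nucleic acid or directly on viral components. Other members work as chromatin cofactors, in mitosis or in epithelial growth, so the family has no single function in keratinocytes.

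Promoter sequences show which members carry a core of the element through which interferon acts on genes. Promoters, from 250 bases before to 50 bases after a gene's start, were taken from RefSeq (GRCh38.p14), which gave 30 of the 42 members past the filter. TRIM22 had no entry. The core searched was GAAANNGAA on both strands, which matches within the binding site of interferon-activated factors. It was found in 4 of 7 interferon-inducible members and in 4 of 23 other members, beside 8.29% of all 27305 promoters of the same length and 6.88% of the 12230 promoters of genes in the table. A match is a description of the letters and was not tested for use. The stretches around the matches are printed 5′ to 3′ along each gene's strand, with the matched letters in capitals. TRIM26 and TRIM21 each carry a pair of matches that overlap by 3 bases. The matches of TRIM21 lie just after the gene's start and are shown within 24 bases, while the other stretches lie before the start, with up to 30 bases on each side of the match.
TRIM5, chr11:5685075-5685130, minus strand: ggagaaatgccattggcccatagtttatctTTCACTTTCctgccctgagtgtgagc
TRIM14, chr9:98119223-98119277, minus strand: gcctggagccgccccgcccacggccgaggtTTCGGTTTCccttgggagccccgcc
TRIM21, chr11:4393666-4393689, minus strand: agcgGAAACTGAAAGTGAAatagg
TRIM26, chr6:30213555-30213629, minus strand: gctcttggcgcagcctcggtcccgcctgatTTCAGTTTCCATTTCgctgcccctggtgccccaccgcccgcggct
TRIM34, of the other members, chr11:5624882-5624950, plus strand: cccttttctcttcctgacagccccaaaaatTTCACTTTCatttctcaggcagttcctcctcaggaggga

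TRIM2, TRIM16 and TRIM44 were the remaining other members with a match. No match was found in this window for TRIM25, TRIM38 and TRIM56. A STAT core, TTCNNNGAA, was in 0 of the 7 interferon-inducible promoters and in 3 of the 23 others (7.88% of all promoters). The ETS core CCGGAA, the kind of site that FLI1 binds, was in 1 of the 7, TRIM26, and in 4 of the 23 others, TRIM41, TRIM52, TRIM62 and TRIM66 (17.6% of all promoters and 27.0% of those in the table).

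The family as a whole differed little between the libraries. None of the 42 members past the filter was 1.5-fold higher or lower in the FLI1 library, where 3.51% of all genes past the filter were higher by that factor or more and 2.09% were lower. For 2-fold, the shares of all genes were 1.19% higher and 0.48% lower. The members' ratios ran from -0.43 for TRIM59 to 0.47 for TRIM22, with a median of 0.02, beside a median of -0.0036 over all genes past the filter. A ratio above 0 was seen in 23 members and below 0 in 19. The interval lay above 0 for 7 of the 42 members (16.7%), where 16.5% of all genes had such an interval, and below 0 for 8 (19.0%), where 14.7% of all genes had one. Both shares of members were thus near those of all genes. The summed reads of the 42 members were 40646 in the FLI1 library and 41019 in the vector control library.

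**Figure D1:**
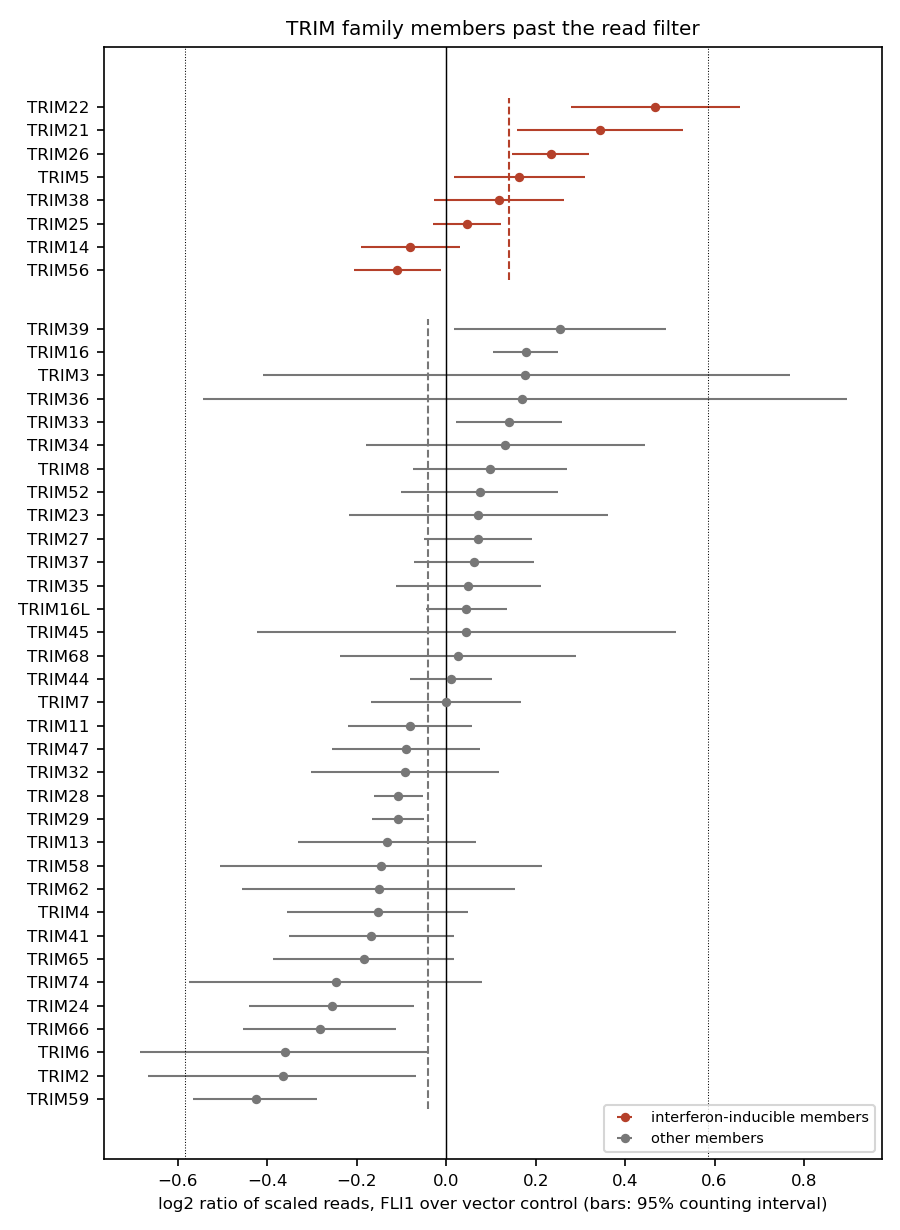
Log2 ratios (FLI1 library over vector control library) of the 42 TRIM members past the filter, with the interferon-inducible members in red above the other members in grey. Points are single-library ratios, bars the 95% counting intervals, dashed lines the medians of the 2 classes (0.14 and -0.04) and dotted lines a 1.5-fold difference, which no point reaches.

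Interferon-inducible members lay slightly higher than the other members. In 6 of the 8 the ratio was above 0, in 4 the interval was above 0 and in 1, TRIM56, it was below 0, and the median was 0.14. Over all genes past the filter, 49.2% had a ratio above 0, 16.5% an interval above 0 and 14.7% an interval below 0. Shares over all genes, here and elsewhere, were not matched for depth, and intervals narrow as reads rise. Of the 34 other members, 17 had a ratio above 0 and 17 below it. Their median was -0.04, with 3 intervals above 0 and 7 below 0. Summed over the class, the 8 interferon-inducible members had 10887 reads in the FLI1 library and 10282 in the vector control library, a log2 ratio of 0.09 (interval 0.05 to 0.13). The 34 other members had 29759 reads in the FLI1 library and 30737 in the vector control library, a log2 ratio of -0.04 (-0.06 to -0.02). The classes differ in size and in their abundant genes, and the difference between them was not tested. Fewer cells that make a transcript and less of it in each cell cannot be told apart in such bulk libraries.

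TRIM22, which restricts HIV by reducing its transcription, had the highest ratio of the 42 members past the filter. It had 546 reads in the FLI1 library, against 397 in the vector control library, and its level was 14.3 and 10.5 FPKM. This is a log2 ratio of 0.47 (interval 0.28 to 0.66), or 1.38-fold. All of its reads came from a single listed transcript.

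TRIM21, a cytosolic antibody receptor that targets antibody-coated viruses to the proteasome, followed. It had 549 reads in the FLI1 library, against 435 in the vector control library, a log2 ratio of 0.34 (0.16 to 0.53), or 1.27-fold. TRIM21 also has a single listed transcript, so neither gene's value rests on sharing reads among its isoforms.

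TRIM26, a ligase encoded within the major histocompatibility complex, had 2381 reads in the FLI1 library, against 2036 in the vector control library. Its log2 ratio was 0.23 (0.15 to 0.32), the narrowest of the intervals above 0 within the interferon-inducible class. TRIM5, the retroviral capsid restriction factor, had 810 reads in the FLI1 library, against 727 in the vector control library, and a log2 ratio of 0.16 (0.02 to 0.31). When libraries were scaled by their totals instead, the interval of TRIM5 included 0.

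TRIM38, an inhibitor of Toll-like receptor signalling that also modifies cytosolic sensors, had 812 reads in the FLI1 library and 752 in the vector control library. Its log2 ratio of 0.12 had an interval that included 0 (-0.03 to 0.26). TRIM25, the ligase that ubiquitinates the RNA sensor RIG-I, had 2845 reads in the FLI1 library and 2771 in the vector control library. Its log2 ratio was 0.05 (-0.03 to 0.12), a counting interval from 0.979-fold to 1.09-fold.

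TRIM14 and TRIM56 had ratios below 0. TRIM14, an adaptor at the mitochondrial protein MAVS, had 1307 reads in the FLI1 library and 1389 in the vector control library, a log2 ratio of -0.08 (-0.19 to 0.03). TRIM56, a ligase tied to the cGAS and STING pathway, had 1637 reads in the FLI1 library and 1775 in the vector control library, at -0.11 (-0.21 to -0.01). Both had counts that were not whole, as arises where reads are divided among genes. TRIM14 also overlaps the opposite-strand gene NANS over 422 exon bases. The estimated reads of TRIM14 and NANS were 1306.53 and 757.47 in the FLI1 library, and 1388.63 and 826.37 in the vector control library. In each library these add up to a whole number, as where reads are divided between such a pair across strands. The strand setting of the counting is not given in the sources used here.

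Members with the element core had ratios on both sides of 0. Within the class, of those with a match, TRIM21, TRIM26 and TRIM5 had intervals above 0 and TRIM14 had one that included 0. Of those without, TRIM38 and TRIM25 had intervals that included 0 and TRIM56 had one below 0. TRIM34, whose product is a close relative of TRIM5 and whose stretch holds the same 9 letters as that of TRIM5, had 182 reads in the FLI1 library and 167 in the vector control library, at 0.13 (-0.18 to 0.44). Of the remaining other members with a match, TRIM16 had a ratio of 0.18 with an interval above 0, TRIM44 one of 0.01 with an interval that included 0, and TRIM2 one of -0.36 with an interval below 0.

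The levels of the family spanned a wide range, and its most abundant members were outside the interferon-inducible class. Of the 51 members, 21 had at least 10 FPKM in both libraries and 10 had less than 1 FPKM in both. TRIM28, the corepressor that brings zinc-finger repressors to heterochromatin, had 120 FPKM in the FLI1 library and 132 FPKM in the vector control library. TRIM29, a RING-less protein known in squamous epithelium, had 116 and 127 FPKM. TRIM16, another RING-less member, studied in keratinocytes among other cells, had 85.9 and 78.9 FPKM, and its near-copy TRIM16L had 82.7 and 80.8 FPKM. TRIM27 had 31.2 FPKM in the FLI1 library and 28.9 FPKM in the vector control library, with 1151 and 1101 reads. These 5 genes were the most abundant of the other members, and TRIM26 (53.1 and 46.0 FPKM) and TRIM25 (35.5 and 34.9 FPKM) were the most abundant of the interferon-inducible ones. TRIM56, at 10.6 and 11.6 FPKM, was the least abundant of that class in the FLI1 library, and TRIM22 was so in the vector control library.

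**Figure D2:**
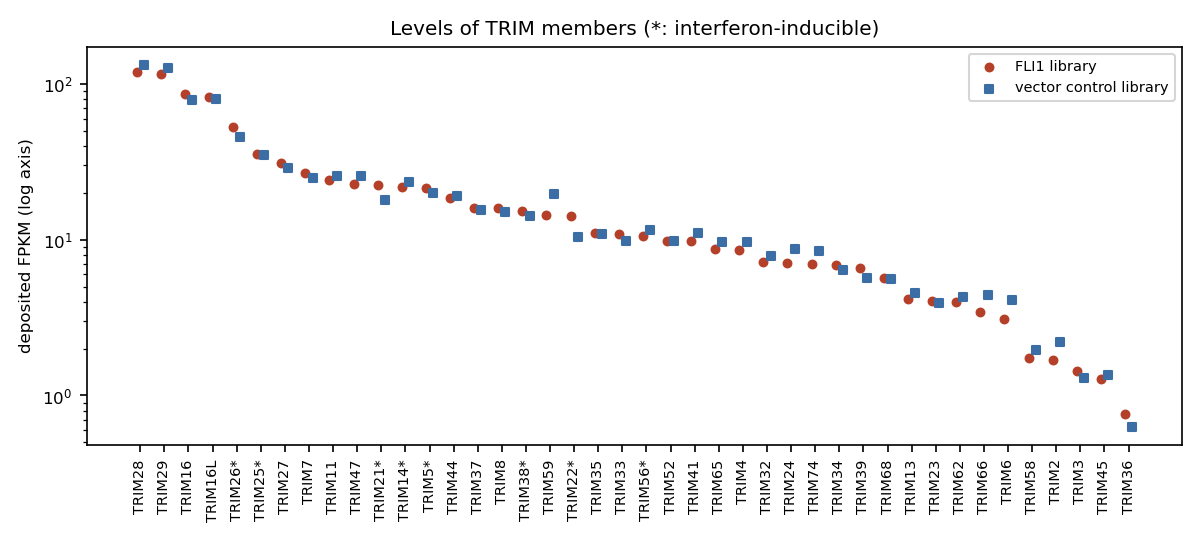
Deposited FPKM (log axis) of the 42 members past the filter in the FLI1 library (red circles) and the vector control library (blue squares), ordered by level in the FLI1 library, with interferon-inducible members starred. Levels run from 120 FPKM for TRIM28 to 0.76 FPKM for TRIM36 in the FLI1 library, and the symbols of most members nearly coincide.

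Of the chromatin cofactors, 3 were lower and 1 was higher. TRIM24, TRIM28, TRIM33 and TRIM66 are transcriptional cofactors related by a domain that reads histone marks or recruits silencing complexes, and 3 of the 4 had an interval below 0, as did 14.7% of all genes. TRIM28 had 5277 reads in the FLI1 library and 5714 in the vector control library, a log2 ratio of -0.11 (-0.16 to -0.05). TRIM24, a nuclear receptor cofactor and regulator of p53, had 445 reads in the FLI1 library and 534 in the vector control library, at -0.25 (-0.44 to -0.07). TRIM66 had 512 reads in the FLI1 library and 626 in the vector control library, at -0.28 (-0.45 to -0.11). TRIM33, which acts on SMAD signalling, went the other way, with 1205 reads in the FLI1 library and 1099 in the vector control library, at 0.14 (0.02 to 0.26). The interval of TRIM33 included 0 when libraries were scaled by their totals. The median of the group was -0.18.

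TRIM59 had the lowest ratio of the members past the filter, and the group of cell cycle and p53 members to which it belongs had a median of -0.13. TRIM59, a membrane-anchored member tied to tumour cell proliferation, had 746 reads in the FLI1 library, against 1008 in the vector control library. Its level was 14.4 FPKM in the FLI1 library and 19.6 FPKM in the vector control library, and its log2 ratio was -0.43 (-0.56 to -0.29), or 0.74-fold. Exons of TRIM59 overlap those of the condensin gene SMC4 on the opposite strand over 1561 bases, 19.8% of the exon bases of TRIM59. SMC4, which is no TRIM gene, had 7531 reads in the FLI1 library and 9045 in the vector control library, at -0.26 (-0.30 to -0.21), and its part in the reads of TRIM59 was not tested. Of the 4 other members of this group, TRIM37, a guard of centrosome number, had a ratio of 0.06 (-0.07 to 0.20) and TRIM13 one of -0.13 (-0.33 to 0.07), and the intervals of TRIM36 and TRIM62 included 0 as well.

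Epithelial members without a RING went in both directions by small amounts. TRIM16 had 3322 reads in the FLI1 library and 2953 in the vector control library, a log2 ratio of 0.18 (0.11 to 0.25). TRIM16L had 2034 reads in the FLI1 library and 1982 in the vector control library, at 0.05 (-0.04 to 0.14). These near-copies share reads and their counts were not whole. Added together they had 5356 reads in the FLI1 library and 4935 in the vector control library, at 0.13 (0.07 to 0.18). TRIM29 had 4579 reads in the FLI1 library and 4963 in the vector control library, at -0.11 (-0.17 to -0.05). TRIM44, a deubiquitinase-like member, had 1929 and 1925 reads and a ratio of 0.01 (-0.08 to 0.10).

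Of 12 measured members with roles in innate immunity outside the interferon-inducible class, the median was -0.02, with 1 interval above 0 and 1 below 0. TRIM39, a regulator of the anaphase-promoting complex and of apoptosis, had 324 reads in the FLI1 library and 273 in the vector control library, at 0.25 (0.02 to 0.49). Its counts were not whole. The readthrough locus TRIM39-RPP21, which shares 1246 exon bases with it, had 14.4 estimated reads in the FLI1 library and 0.70 in the vector control library. The interval of TRIM39 included 0 when libraries were scaled by their totals. TRIM6, a ligase that makes free ubiquitin chains in interferon signalling, had 144 reads in the FLI1 library and 186 in the vector control library, at -0.36 (-0.69 to -0.04). TRIM6 and TRIM34 are neighbours joined in a readthrough locus, TRIM6-TRIM34, that covers 29.3% of the exon bases of TRIM6 and 83.0% of those of TRIM34 and has no value here.

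TRIM2, a ligase of the NHL-repeat group best known from neurons, had 166 reads in the FLI1 library and 215 in the vector control library, at -0.36 (-0.67 to -0.07). Its relative TRIM3 had 54 and 48 reads, at 0.18 (-0.41 to 0.77). TRIM32, a ligase of the same group, had 364 and 390 reads, at -0.09 (-0.30 to 0.12). The remaining members had intervals that included 0. In all, 24 of the 34 other members did so, with ratios from -0.25 for TRIM74 to 0.18 for TRIM3.

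Some TRIM genes lie near each other, while 34 of the 51 have no other member within 1000 kb. On chromosome 11 (GENCODE 29, GRCh38), TRIM21 lies on the minus strand from 4384897 to 4393696. TRIM6, TRIM34, TRIM5 and TRIM22 follow along the same arm between 5596109, the start of TRIM6, and 5938619, the end of TRIM5. TRIM22, on the plus strand from 5689689 to 5737089, lies within the GENCODE span of TRIM5 on the minus strand. The RefSeq promoter of TRIM5, with the stretch printed above at 5685075 to 5685130, gives TRIM5 a start outside TRIM22, so the nesting depends on the annotation. Of the members past the filter, TRIM22 and TRIM21 had the highest ratios and TRIM6, in the same cluster, the third lowest. Across the 10 measured members of chromosome 11 the median was 0.08, with 3 intervals above 0 and 3 below 0. Over all genes past the filter, 16.5% had an interval above 0 and 14.7% one below 0. On chromosome 6, the 4 measured members TRIM38, TRIM27, TRIM26 and TRIM39 all had ratios above 0, from 0.07 to 0.25. Of these, the neighbours TRIM26 and TRIM39 had the 2 intervals above 0, with ratios of 0.23 and 0.25. On chromosome 7, TRIM56, TRIM4, TRIM74 and TRIM24, which lie apart from each other, all had ratios below 0, from -0.25 to -0.11. Of these, 2 had intervals below 0. Ratios on chromosomes 1, 5 and 17 lay on both sides of 0. They ran from -0.15 to 0.14 on chromosome 1, from -0.17 to 0.17 on chromosome 5 and from -0.18 to 0.18 on chromosome 17. A link between position and ratio was not tested.

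The 9 members below the filter had too few reads for a difference to be seen. TRIM46 (8 reads in the FLI1 library and 14 in the vector control library) and TRIM72 (2.41 and 7.41 estimated reads) were the nearest below the filter, and TRIM36 (37 and 33 reads) and TRIM3 were the nearest above it. TRIM9, a neuronal ligase, had 4 reads in the FLI1 library and 0 in the vector control library. TRIM54 and TRIM67 had 0 reads in the FLI1 library, against 1 and 2 in the vector control library. TRIM17, TRIM31, TRIM69 and TRIM71 had 1 to 3 reads in either library. All 9 intervals included 0.

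Of the 42 members past the filter, 36 had several listed transcripts, and 19 had transcripts with intervals on both sides of 0. The same share over all genes was not computed, so the count is not a trait of the family. The genes described here were picked after their values had been seen. TRIM5 has 9 listed transcripts. Its restriction-competent alpha form, NM_033034, had 216.8 estimated reads in the FLI1 library and 211.5 in the vector control library. The predicted form XM_006718358 had 85.2 estimated reads in the FLI1 library and 8.35 in the vector control library, the widest difference in reads among the 9. For TRIM28, NM_005762 had 4673 estimated reads in the FLI1 library and 4765 in the vector control library, and the predicted form XM_024451309 had 603.6 and 949.1. That predicted form made up 11.4% of the reads of TRIM28 in the FLI1 library and 16.6% in the vector control library.

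For TRIM33, the form NM_015906 had 806.8 estimated reads in the FLI1 library and 601.1 in the vector control library, while NM_033020 had 247.0 and 372.2. These forms differed in opposite directions. The reads of TRIM26 were spread over 11 listed transcripts. Of these, XM_005249374 had 1115 estimated reads in the FLI1 library and 849.7 in the vector control library, while a repeat entry of NM_001242783 had 0 and 180.7. The reads of TRIM66 and TRIM2 were spread over 17 and 23 listed transcripts. Such splits are estimates, and their error of assignment is not covered by a counting interval. Gene counts equalled the sum over transcripts to within 0.01 reads, so the split does not alter the gene counts or their ratios. This check does not cover FPKM. TRIM7, for example, had 584 reads in the FLI1 library and 587 in the vector control library, but 26.89 and 24.95 FPKM.

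**Figure D3:**
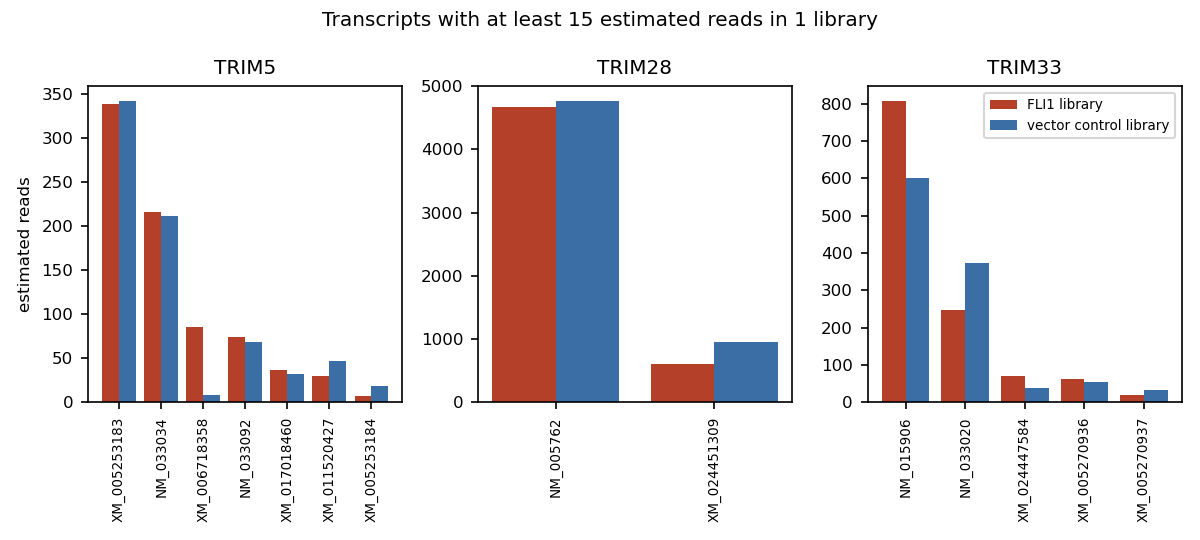
Estimated reads of the transcripts of TRIM5, TRIM28 and TRIM33 that had at least 15 estimated reads in 1 library, with the FLI1 library in red and the vector control library in blue. XM_006718358 of TRIM5 stands at 85.2 in the FLI1 library against 8.35 in the vector control library, and NM_015906 and NM_033020 of TRIM33 differ in opposite directions.

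Several genes of the pathways in which the interferon-inducible members act had higher ratios than any TRIM member, while the median of their list (0.09) lay below that of the interferon-inducible class (0.14). Of 25 measured substrates and adaptors, 10 had intervals above 0 (16.5% of all genes) and 2 had intervals below 0 (14.7% of all genes). In this list 5 genes were higher by 1.5-fold or more (3.51% of all genes) and 0 were lower by that factor (2.09% of all genes). The list was chosen with earlier results of these data known, so these counts describe the listed genes only. ISG15, a ubiquitin-like modifier for which TRIM25 is a known ligase, had 1468 reads in the FLI1 library and 629 in the vector control library, at 1.23 (1.09 to 1.37). DHX58, the RNA sensor LGP2, had 155 reads in the FLI1 library and 68 in the vector control library, at 1.19 (0.78 to 1.63). IFIH1, the RNA sensor MDA5, had 2103 reads in the FLI1 library and 1016 in the vector control library, at 1.06 (0.95 to 1.17). DDX58, which encodes RIG-I, had 4820 reads in the FLI1 library and 2488 in the vector control library, at 0.96 (0.89 to 1.03). The interval of its ligase gene TRIM25 ended at 0.12, below those of all 4 of these genes.

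Further partners, picked after their values had been seen, lay on both sides of 0. MAVS, the adaptor that TRIM14 binds, had 2872 reads in the FLI1 library and 3198 in the vector control library, at -0.15 (-0.22 to -0.07). STING1 had 408 reads in the FLI1 library and 336 in the vector control library, at 0.29 (0.08 to 0.50), while CGAS had 363 and 399 reads, at -0.13 (-0.34 to 0.08). ZC3HAV1, an antiviral protein that uses TRIM25 as cofactor, had 5802 reads in the FLI1 library and 3964 in the vector control library, at 0.56 (0.50 to 0.62).

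**Figure D4:**
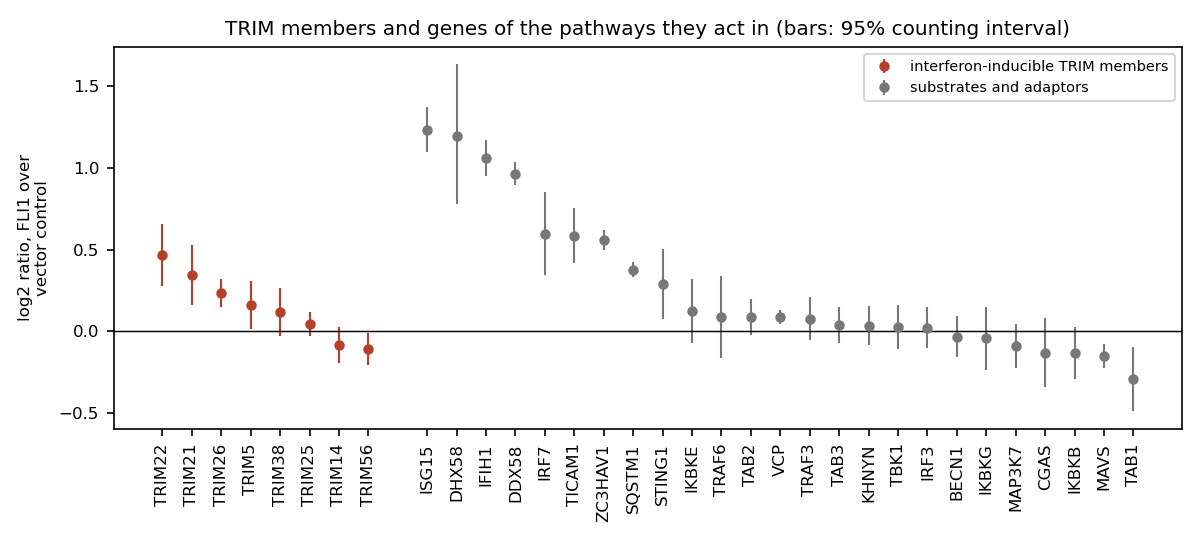
Log2 ratios (FLI1 library over vector control library) with 95% counting intervals of the 8 interferon-inducible TRIM members (red) and the 25 measured substrates and adaptors (grey), each sorted by ratio. ISG15, DHX58, IFIH1 and DDX58 lie near 1, while the points of all 8 TRIM members lie below 0.5.

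Ubiquitin genes and the enzymes that pass ubiquitin to TRIM proteins lay near 0. In this list of 19 measured genes the median log2 ratio was 0.03, none was 1.5-fold higher or lower, 3 intervals lay above 0 and 2 lay below 0. RPS27A, a ubiquitin fusion gene, had 7736 reads in the FLI1 library and 8133 in the vector control library, at -0.06 (-0.11 to -0.02). The polyubiquitin gene UBB had 8048 reads in the FLI1 library and 6846 in the vector control library, at 0.24 (0.19 to 0.29). Family members known by other symbols were similar in size of difference. PML, an interferon-inducible TRIM protein that forms nuclear bodies, had 1919 reads in the FLI1 library and 1846 in the vector control library, at 0.06 (-0.03 to 0.16). MID1, a microtubule-bound ligase, had 661 reads in the FLI1 library and 766 in the vector control library, at -0.20 (-0.36 to -0.05).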

How the data were processed

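Both HaCaT RNA-seq libraries were used, with groups from the genotype labels. A BGISEQ instrument read total RNA, per the labels' protocols. The submitters' processing notes name GRCh38 p13. Aligner, counter, annotation and strand setting are not stated in the sources used here. Deposited tables hold estimated counts (84.5% of genes whole to within 0.005 reads in the FLI1 library, 84.1% in the vector control library) and FPKM and TPM values scaled by the authors. All columns were matched to a sample.

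Estimated counts were rounded. TMM factors from edgeR 4.0.16 (R 4.3.3) were 0.991 in the FLI1 library and 1.01 in the vector control library. Ratios had 0.5 reads added, and intervals were exact conditional (Clopper-Pearson) intervals of 95%. They cover counting error only, since each group had 1 library. Without molecular identifiers reads are not independent, so the intervals may be too narrow even for counting error. At 20, 100 and 1000 reads in each library the interval reached 0.97, 0.41 and 0.13 (log2) to either side. The calculation was tested on simulated data. FPKM, which is per length, was used to compare levels between genes. FPKM and TPM served as other scales.

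Positions and exon overlaps came from GENCODE 29 (GRCh38), and promoters from RefSeq (GRCh38.p14), of which 39 of the 51 members had an entry. The members, lists and rules were chosen with earlier results of these data known. The genes named are the 8 interferon-inducible members; the other members past 1.5-fold or with an interval that excludes 0, the 5 with the highest FPKM and the 2 on each side of the filter; and from each pathway list up to 4 genes past 1.5-fold, or else the 2 with the highest FPKM. Further members are named to describe a group, a cluster or a promoter. MAVS, STING1, CGAS and ZC3HAV1 were named outside these rules, after their values had been seen.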

Additional observations from a re-analysis of the deposited data

How the results depend on the processing

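Results were recomputed under 9 alternatives: scaling by library total or by median of ratios, filters of at least 1 or 100 reads, FPKM with 0.5 or 1 added, TPM with 1 added, genes with whole counts alone, and 2 reads added. None of the 192 values of named members changed sign, but many of them could not. The other filters and the restriction to whole counts keep or drop a gene without altering its ratio. Scaling by library total or by median of ratios shifts the ratios of all genes by the same small amount. The median of the interferon-inducible members ran from 0.10 (TPM plus 1) to 0.20 (whole counts alone), and that of the other members from -0.09 to 0.000402. The median of the other members changed sign to 0.000402 with at least 1 read, where sparse members enter, and 1 member, TRIM9, was then at least 1.5-fold higher and 4, TRIM46, TRIM54, TRIM67 and TRIM72, were at least 1.5-fold lower, all with intervals that included 0. Scaled by library total, 4 members in place of 7 had an interval above 0. TRIM5, TRIM33 and TRIM39 lost it, and TRIM41 and TRIM65 gained an interval below 0, for 10 in place of 8. All other counts stayed within 1.5 times. No paired analysis was possible because each group had 1 library, and none could be left out. Depth limits the members with few reads: at 20 reads in each library, a difference under about 2-fold lies within the counting interval.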
